A study of Mus musculus with 8 samples.

Results

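The genes described here are 33 mouse genes of glycolysis and of the response to low oxygen, taken by symbol from the Ribo-seq gene tables, where all 33 were found among 23845 gene symbols. No measured value entered the rule, but the 33 genes were chosen with earlier results of these data known. They comprised glucose transporters, every step from hexokinase to pyruvate kinase, lactate and pyruvate handling, the oxygen-sensing factor HIF-1α with its hydroxylases, and other genes induced by hypoxia. The libraries came from mouse embryonic stem cells at passages 5 to 10, either wild type (WT) or METTL5 knockout (KO). METTL5 is the methyltransferase that places N6-methyladenosine on 18S ribosomal RNA. Ribo-seq, which sequences the mRNA fragments protected by ribosomes (footprints), and RNA-seq were each made from 2 WT and 2 KO libraries, which the series calls biological replicates. Footprints were purified from the monosome fraction of a sucrose gradient. The strain, the knockout allele and the number of KO clones are not stated in the labels. Same-numbered WT and KO Ribo-seq libraries share a date-like tag in their deposited names, and what was done on that date is not stated.

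Glycolysis splits glucose into pyruvate in the cytosol and yields ATP without oxygen, and lactate dehydrogenase then turns pyruvate into lactate, which monocarboxylate transporters export. When oxygen is short, the prolyl hydroxylases that mark HIF-1α for destruction stop working, and the stabilised factor, paired with ARNT, binds a short DNA core near its target genes. Many glycolytic enzymes are such targets, and pluripotent stem cells in culture are known for a high glycolytic rate.

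Total expected counts were 8401463 to 11487964 per Ribo-seq library and 152195 to 219567 per RNA-seq library, so that 3 counts corresponded to 0.261 to 0.357 and to 13.7 to 19.7 CPM (counts scaled to a common library total). The 33 genes took 2.56% to 2.98% of the footprint counts in each library. Footprints on Mettl5, the targeted gene, stood at 41.2 and 45.9 CPM in WT and at 4.08 and 4.79 CPM in KO. In RNA-seq Mettl5 was at 397 and 601 CPM in WT and at 256 and 317 CPM in KO, so the KO libraries, though lower, kept much of its RNA signal. All 10 embryonic stem cell markers checked had footprints in each library, summing to between 5265 and 7100 CPM. Markers of other cell types summed to far less but differed between the genotypes: 12 fibroblast markers to 198 and 102 CPM in WT against 473 and 680 CPM in KO, 8 trophoblast markers to 119 and 109 against 307 and 334 CPM, 10 primitive endoderm markers to 126 and 187 against 43.4 and 39.2 CPM, and 8 mesoderm markers to 3.96 and 2.65 against 16.7 and 26.0 CPM. Among trophoblast markers the difference was that of Krt8 and Krt18, epithelial keratins that summed to 79.4 and 68.0 CPM in WT against 262 and 293 CPM in KO, while the other 6 summed to 41.0 CPM or less in WT against 44.6 and 41.2 CPM in KO. Lum, a fibroblast marker, was at 0 in all libraries. Thy1, another, went against the fibroblast sum, at 20.2 and 25.1 CPM in WT against 14.8 and 16.5 CPM in KO. The part of other cell types in the results was not tested, and in bulk samples fewer cells of a type and less RNA per cell cannot be told apart. Footprints also depended on the chromosome. The median log2 fold change, KO against WT, was -0.38 over 565 genes of chromosome 6, -0.25 over 1043 genes of chromosome 11 and -0.22 over 676 genes of chromosome 8, against a median of 0.01 over all 12315 genes tested.

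Footprint density per unit of length set the members far apart. Gapdh, the glyceraldehyde-3-phosphate dehydrogenase, was the highest, with 10498 and 9441 deposited TPM (a level per transcript length) in WT and 8691 and 7823 TPM in KO. Pkm, the pyruvate kinase that makes pyruvate, came next at 3321 to 4350 TPM. Ldha, Eno1, Aldoa, Pgk1 and Ldhb followed, with WT means between 1068 and 1466 TPM, and the order of the first 4 of these was within the spread of their 2 WT libraries. The place of Eno1 also rests on an estimated split of reads with the near-identical Eno1b. Eno1 held 35.0% to 47.2% of the summed footprint counts of the 2 genes. Among the oxygen-sensing and hypoxia-induced genes, Bnip3 (WT mean 88.6 TPM) and Hif1a (32.9 TPM) lay in the middle of the order, beside Slc16a3 and Hk1. Egln1, Adm and Car12 had WT means of 2.11 to 3.27 TPM, and Car9, a carbonic anhydrase that hypoxia strongly induces in other cells, was the lowest at 0.260 to 0.780 TPM. Car9 had 23.8 counts over the 4 Ribo-seq libraries, 0.382 and 0.952 CPM in WT and 0.322 and 0.767 CPM in KO, and did not pass the filter on low counts, which left 32 members in the test. The plot of CPM by library shows this range of levels and where replicates part.

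**Figure D1:**
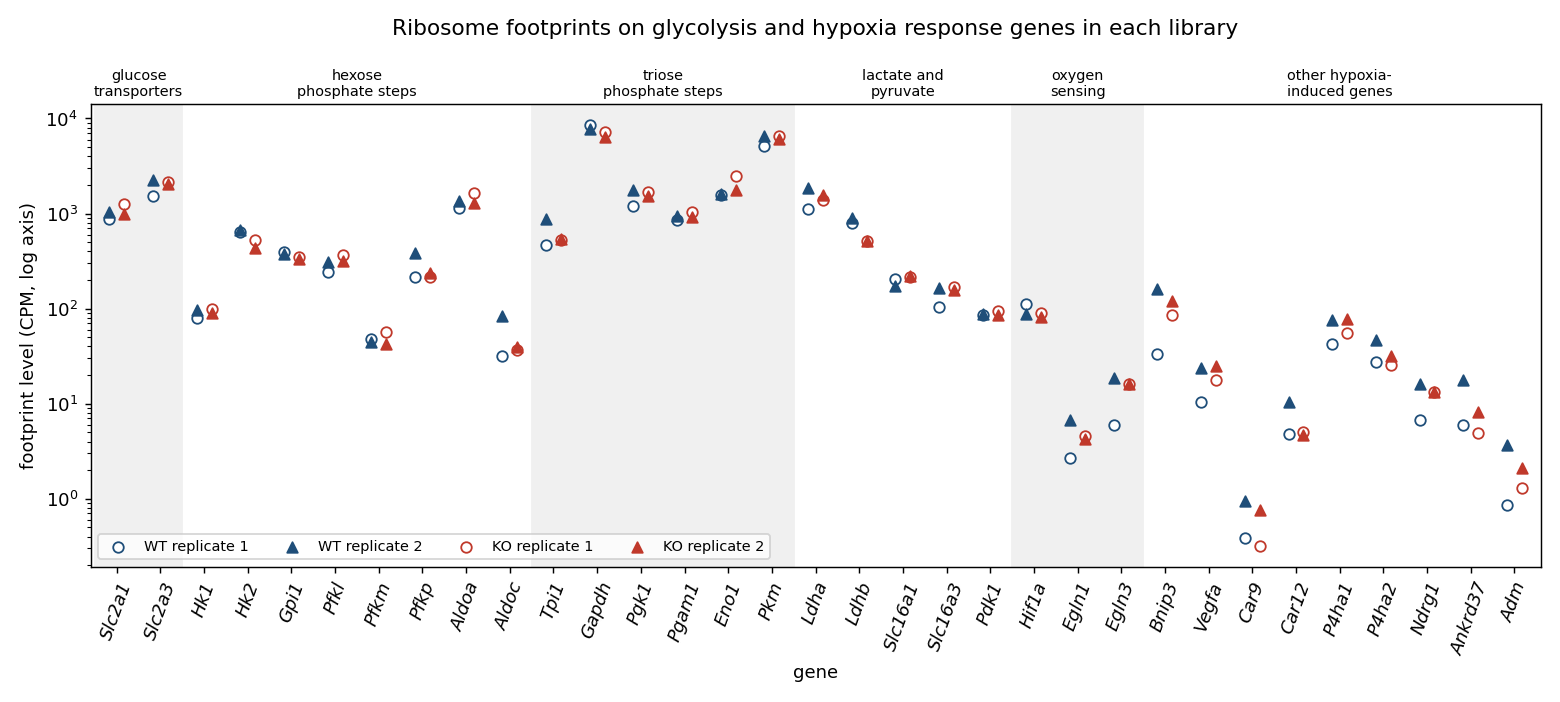
Footprint CPM (log scale) of the 33 genes in each of the 2 WT and 2 KO Ribo-seq libraries, ordered by role. Most glycolytic enzymes have 4 points close together, while WT replicate 1 lies below the other 3 libraries for Bnip3, Egln3, Vegfa and Ndrg1.

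In the comparison of KO with WT footprints, which asks how ribosome occupancy changes without the enzyme, no member was called by the edgeR quasi-likelihood test at a Benjamini-Hochberg adjusted p below 0.05, where 2.44% of all genes tested were called. At an unadjusted p below 0.05, 3 of 32 members passed (Hk2, Eno1 and Ldhb), 9.38% against 19.4% of all genes. The median log2 fold change of the members was 0.11, with 19 above and 13 below 0. Genotypes did not overlap for 7 members, 21.9% against 49.8% of all genes. Of these, Pfkl, Eno1 and Slc16a1 were higher in both KO libraries (9.38% against 24.3%), and Hk2, Gpi1, Gapdh and Ldhb were lower (12.5% against 25.5%).

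With the replicate number as a block, which compares KO with WT within each date-like tag, edgeR called 10 of 32 members, 31.2% against 24.0% of all genes. It called Pfkl, Eno1, Slc16a3, Bnip3 and Egln3 higher in KO (15.6% of members against 12.7% of all genes), and Hk2, Pfkp, Aldoc, Ldhb and Ankrd37 lower (15.6% against 11.3%). That fit left 1 residual degree of freedom and gave each gene the spread of other genes at its level. For 5 of the 10 members, Pfkp, Aldoc, Slc16a3, Bnip3 and Egln3, KO minus WT in unscaled CPM had opposite signs in the 2 tags, Pfkp with a first value near 0. Among all 2960 genes it called, 19 had opposite signs, 0.154% of the genes tested against 15.6% of the members (0.130% against 12.5%, with 4 members, when totals were scaled by TMM factors). On the TMM scale, which the fit used, Pfkp was -0.03 with the first tag and -0.61 with the second, and the signs of the other 4 stayed opposite. Their libraries are given below.

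Slc2a1 (GLUT1) and Slc2a3 (GLUT3) are the glucose transporters among the members, and glucose uptake was not measured. Slc2a1 footprints stood at 878 and 1029 CPM in WT and at 1246 and 996 CPM in KO. For Slc2a3 the values were 1545 and 2242 CPM in WT and 2131 and 2060 CPM in KO. Genotypes overlapped for both, and the log2 fold changes of 0.24 (SE 0.17) and 0.16 (SE 0.20) were not called (edgeR adjusted p = 0.489 and 0.723). Slc2a3 lies on chromosome 6, and with chromosome medians removed its log2 fold change was 0.54 (edgeR adjusted p = 0.229, and 0.00367 with the block).

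Hexokinase traps glucose in the cell as glucose 6-phosphate. Hk2, the main hexokinase here, at chr6:82725025-82774454, had 633 and 676 CPM in WT and 526 and 429 CPM in KO. Both KO libraries were below both WT libraries, with a log2 fold change of -0.44 (SE 0.16), an edgeR adjusted p of 0.175 and one of 0.00384 with the block. The difference was close to that of its chromosome: with chromosome medians removed, the log2 fold change of Hk2 was -0.06 (edgeR adjusted p = 0.898, and 0.782 with the block). Hk1 footprints differed less, at 79.0 and 95.9 CPM in WT and 99.0 and 89.7 CPM in KO.

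Phosphofructokinase commits sugar to glycolysis, and its subunits differed in direction. Pfkl, the liver-type subunit on chromosome 10, had 245 and 309 CPM in WT and 363 and 314 CPM in KO, just apart, with a log2 fold change of 0.30 (SE 0.17, edgeR adjusted p = 0.374, and 0.0395 with the block). Pfkp, the platelet-type subunit on chromosome 13, had 215 and 381 CPM in WT against 215 and 239 CPM in KO. WT replicate 2 stood above the other 3 libraries, so that KO minus WT on the log2(CPM + 0.5) scale was 0.003 with the first tag and -0.67 with the second. Its log2 fold change was -0.38 (SE 0.25, edgeR adjusted p = 0.470, and 0.0265 with the block). Pfkm, the muscle-type subunit, lay between 42.1 and 56.8 CPM with the genotypes overlapping.

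Gpi1, the isomerase between these steps, was at 391 and 378 CPM in WT and 350 and 330 CPM in KO, apart but with a log2 fold change of only -0.16 (SE 0.15, edgeR adjusted p = 0.599). Aldolase cuts the sugar into triose phosphates. Aldoa, its main form here, was at 1152 and 1362 CPM in WT and at 1652 and 1303 CPM in KO. Aldoc, the brain-type form on chromosome 11, was at 31.4 and 84.2 CPM in WT and at 36.7 and 39.8 CPM in KO. As with Pfkp, WT replicate 2 stood alone. The log2 fold change of Aldoc was -0.58 (SE 0.44), with an edgeR adjusted p of 0.540 and one of 0.00535 with the block, and KO minus WT was 0.22 with the first tag and -1.07 with the second. With chromosome medians removed, its log2 fold change was -0.33 (edgeR adjusted p = 0.768, and 0.302 with the block).

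The 6 genes from triose phosphate to pyruvate gave no call without the block. Eno1, the enolase, had 1558 and 1609 CPM in WT and 2470 and 1781 CPM in KO, both KO libraries being above both WT libraries. Its log2 fold change was 0.43 (SE 0.18, edgeR adjusted p = 0.238, and 0.0338 with the block). Reads of Eno1 are shared with the near-identical Eno1b, which was at 2233 to 3169 CPM, and the tables split them by estimate. Summed, the 2 genes had 3791 and 4599 CPM in WT and 5238 and 4950 CPM in KO, a log2 fold change of 0.29 (edgeR adjusted p = 0.407, and 0.244 with the block), so the call on Eno1 did not hold for the sum.

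Gapdh was at 8592 and 7775 CPM in WT and at 7212 and 6390 CPM in KO, lower in both KO libraries, with a log2 fold change of -0.26 (SE 0.17, edgeR adjusted p = 0.462). Tpi1, the triose phosphate isomerase, was at 471 and 866 CPM in WT and at 531 and 545 CPM in KO, so that both KO libraries lay between the WT libraries. Both genes are on chromosome 6, and with chromosome medians removed their log2 fold changes turned to 0.13 and 0.09. Pgk1, Pgam1 and Pkm had log2 fold changes of 0.12 to 0.15, and their genotypes overlapped.

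Lactate dehydrogenase held the member with the smallest p of the 32. Ldhb, the heart-type subunit, at chr6:142490249-142507957 on mm10, had 803 and 906 CPM in WT and 510 and 515 CPM in KO. Replicates lay close together and the genotypes far apart, with a log2 fold change of -0.72 (SE 0.16). The edgeR adjusted p was 0.0545, just above the threshold, and 1.35e-06 with the block, and by DESeq2, which called 3.04% of all genes, it was 0.00602. Ldhb was the only member DESeq2 called. Part of the difference was shared with chromosome 6: with chromosome medians removed the log2 fold change was -0.34 (edgeR adjusted p = 0.335, and 0.0495 with the block). Ldha, the muscle-type subunit, had 1122 and 1848 CPM in WT and 1399 and 1584 CPM in KO. Both KO libraries were inside the WT range, and the log2 fold change was 0.02 (SE 0.24).

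Footprint TPM was also read as the share of each isozyme in its family, a share of footprints on mRNAs and not of protein. Ldhb took 47.4% and 38.3% of the summed TPM of Ldha, Ldhb and Ldhc in WT and 31.4% and 29.0% in KO. Among hexokinases, Hk1 took 14.0% and 15.5% in WT and 19.9% and 21.5% in KO. Pfkl took 48.4% and 43.1% of phosphofructokinase in WT and 57.1% and 53.3% in KO, and P4ha1 took 46.0% and 47.9% of the 2 collagen prolyl hydroxylase subunits in WT and 54.7% and 57.6% in KO. Egln1 took 11.6% of the prolyl hydroxylases in each KO library, just below its lower WT share, and 16.0% in WT replicate 2. Of 18 member shares in 9 families, which are not independent within a family, 9 had both KO shares on one side of both WT shares, where the CPM of 49.8% of all genes tested did not overlap. None of the 9 was a glucose transporter, an aldolase, a monocarboxylate transporter or a pyruvate dehydrogenase kinase. These shares are descriptions, with 2 libraries per genotype and no test, and were not adjusted for chromosome. Hk2 and Ldhb lie on chromosome 6 (median -0.38) and P4ha2 on chromosome 11 (median -0.25). With chromosome medians removed, log2 fold changes went from -0.44 to -0.06 for Hk2, -0.72 to -0.34 for Ldhb and -0.34 to -0.09 for P4ha2. Those of Pfkl and Pfkp, on chromosomes 10 and 13, went from 0.30 to 0.23 and from -0.38 to -0.45. The part of chromosomes in the shares was not tested.

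**Figure D2:**
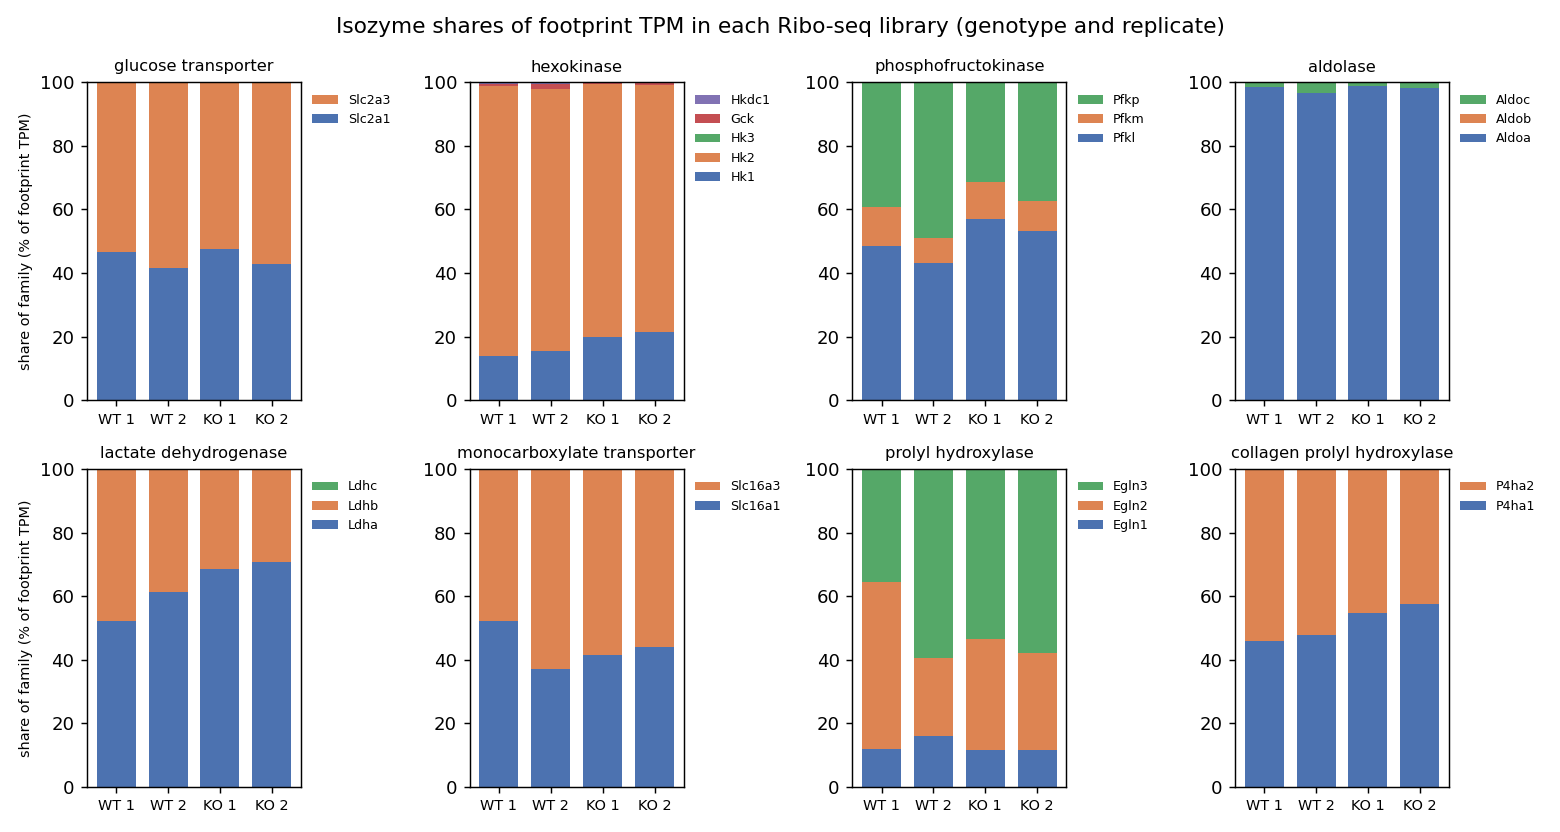
Share (%) of each family's summed footprint TPM taken by single members in each Ribo-seq library. The share of Ldhb is 38.3% and 47.4% in WT and 29.0% and 31.4% in KO.

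Export of lactate and the branch to mitochondria showed small differences. Slc16a1 (MCT1), a carrier of lactate and pyruvate, was at 203 and 173 CPM in WT and at 216 and 220 CPM in KO, a log2 fold change of 0.22 (SE 0.16, edgeR adjusted p = 0.483). Slc16a3 (MCT4), the exporter typical of glycolytic cells, was at 104 and 165 CPM in WT and at 170 and 156 CPM in KO. Here WT replicate 1 was the low library. The log2 fold change of Slc16a3 was 0.28 (SE 0.21, edgeR adjusted p = 0.511, and 0.0256 with the block), and KO minus WT was 0.70 with the first tag and -0.09 with the second. Pdk1, the kinase that shuts off pyruvate dehydrogenase, lay within 85.2 to 93.9 CPM in all 4 libraries.

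**Figure D3:**
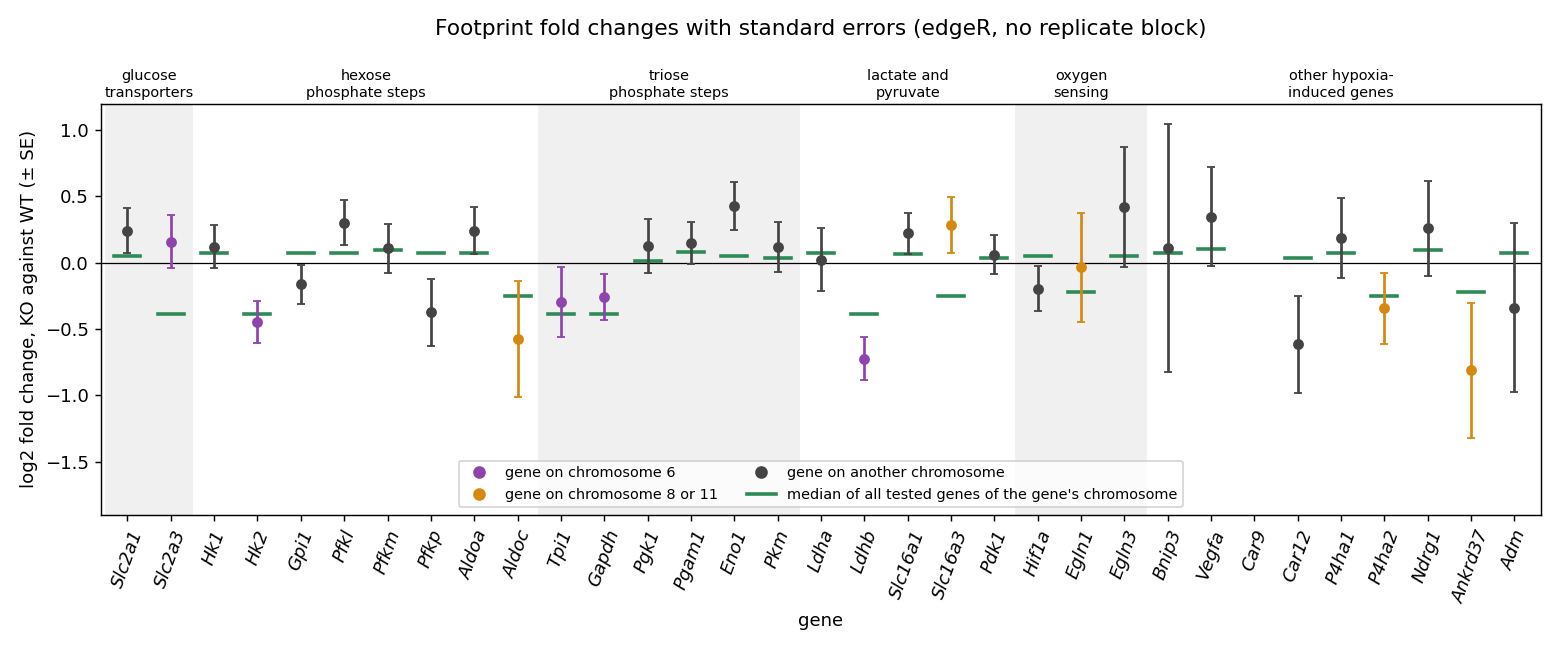
Log2 fold change of footprints, KO against WT, with its SE (edgeR, 2 libraries per genotype) for the 32 members tested, beside the median of all genes tested on the same chromosome. The 5 members on chromosome 6 include Ldhb (-0.72) and Hk2 (-0.44), and that chromosome's median is -0.38.

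Chromosomes 6, 8 and 11 held 10 of the tested members, with a median log2 fold change of -0.32, and the 22 on other chromosomes had a median of 0.12. With chromosome medians removed, the medians were 0.01 and 0.08. No member was then called by edgeR without the block (1.84% of all genes were), and 5 were with it, 15.6% against 20.5% of all genes: Slc2a3, Slc16a3 and Bnip3 higher, Pfkp and Ldhb lower.

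The oxygen sensors and other hypoxia-induced genes differed most between the 2 WT libraries. Hif1a, the regulated subunit of HIF-1, did not: it was at 111 and 87.5 CPM in WT and at 90.4 and 81.5 CPM in KO, a log2 fold change of -0.19 (SE 0.17, edgeR adjusted p = 0.576). Egln3 (PHD3), a prolyl hydroxylase that is itself a HIF target, was at 6.02 and 18.7 CPM in WT and at 16.1 and 16.2 CPM in KO. Egln1 (PHD2), the main oxygen sensor, was at 2.68 and 6.67 CPM in WT and at 4.61 and 4.27 CPM in KO. In both hydroxylases the KO libraries lay between the WT libraries. The log2 fold change of Egln3 was 0.42 (SE 0.45, edgeR adjusted p = 0.672, and 0.0239 with the block), and that of Egln1 was -0.04 (SE 0.41).

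Bnip3, a mitophagy receptor and HIF target at chr7:138890836-138909506, spread most widely. Its footprints stood at 33.6 and 160 CPM in WT and at 85.2 and 120 CPM in KO. KO minus WT was 1.33 with the first tag and -0.42 with the second, for a log2 fold change of 0.11 (SE 0.93, edgeR adjusted p = 0.966). The block gave 0.41 with an adjusted p of 0.00426, although the tags differed in sign. Ankrd37, an ankyrin repeat protein and HIF target at chr8:45996908-46000414, was at 6.02 and 17.7 CPM in WT and at 4.93 and 8.10 CPM in KO, overlapping, with a log2 fold change of -0.81 (SE 0.51, edgeR adjusted p = 0.440, and 0.00421 with the block). Both KO libraries were below the same-numbered WT library. With chromosome medians removed, the log2 fold change of Ankrd37 was -0.59 (edgeR adjusted p = 0.621, and 0.0611 with the block).

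The promoters of Bnip3, Egln3 and Ankrd37 are shown because these HIF targets spread widely between the WT libraries, and that of Ldhb because it had the smallest p between genotypes. Each is the 250 bases before an annotated transcript start in RefSeq on GRCm38.p6 (the assembly behind mm10), 5′ to 3′ on the gene's strand, which is the minus strand for all 4, at chr7:138909507-138909756, chr12:54203875-54204124, chr8:45999851-46000100 and chr6:142507958-142508207. Capitals mark ACGTG or GCGTG, the spelled-out forms of the HIF core, on either strand (CACGT and CACGC on the strand printed). Matches may overlap, as in the palindromic run CACGTG of Bnip3.
Bnip3: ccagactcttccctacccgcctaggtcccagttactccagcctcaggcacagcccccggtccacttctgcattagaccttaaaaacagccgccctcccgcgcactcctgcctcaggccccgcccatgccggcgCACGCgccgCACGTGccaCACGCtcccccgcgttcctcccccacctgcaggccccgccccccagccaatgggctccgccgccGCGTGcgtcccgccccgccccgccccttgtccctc
Egln3: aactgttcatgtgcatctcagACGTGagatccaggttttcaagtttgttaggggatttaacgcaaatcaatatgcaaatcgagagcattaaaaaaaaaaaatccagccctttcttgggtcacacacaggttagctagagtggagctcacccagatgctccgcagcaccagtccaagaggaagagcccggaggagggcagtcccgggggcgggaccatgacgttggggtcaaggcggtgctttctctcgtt
Ankrd37: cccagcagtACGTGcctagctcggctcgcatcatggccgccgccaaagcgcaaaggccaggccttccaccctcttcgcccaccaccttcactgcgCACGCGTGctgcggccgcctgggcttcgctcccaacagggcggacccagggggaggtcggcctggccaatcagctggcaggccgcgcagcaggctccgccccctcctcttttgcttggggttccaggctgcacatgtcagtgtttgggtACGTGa
Ldhb: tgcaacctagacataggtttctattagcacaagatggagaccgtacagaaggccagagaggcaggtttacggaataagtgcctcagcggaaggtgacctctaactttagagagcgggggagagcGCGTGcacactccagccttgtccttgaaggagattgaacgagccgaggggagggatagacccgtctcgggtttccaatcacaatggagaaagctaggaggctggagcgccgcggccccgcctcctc
Bnip3 had 5 matches, Ankrd37 4, Egln3 1 and Ldhb 1. In that order, WT replicate 2 minus WT replicate 1 was 2.23, 1.48, 1.56 and 0.17 on the log2(CPM + 0.5) scale. With 4 chosen genes, whether matches go with this spread was not tested. The windows are not alike. That of Ankrd37 lies inside the gene span given above, so it precedes an internal start. For Egln3 the bases after the window were not found in the gene's transcripts of a second annotation, while for Bnip3, Ankrd37 and Ldhb they were. Promoter windows were found for 31 of the 33 members. ACGTG on either strand was in a window of 19 of the 31, 61.3% against 18.5% of all 27025 genes with such windows, and GCGTG in 64.5% against 30.9%. Either motif was in 90.3% against 41.5%. The background was not matched for base composition, and a match is a description of these letters only.

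The remaining hypoxia-induced members were not called and overlapped between the genotypes. Vegfa, the vascular growth factor, was at 10.5 and 23.7 CPM in WT and at 17.7 and 24.7 CPM in KO. Car12, a carbonic anhydrase, was at 4.78 and 10.5 CPM in WT and at 5.04 and 4.70 CPM in KO, and its log2 fold change was -0.62 (SE 0.37, edgeR adjusted p = 0.409). P4ha1 and P4ha2, the collagen prolyl hydroxylase subunits, had log2 fold changes of 0.19 and -0.34. Ndrg1, a stress-response gene, had 0.26 and Adm, the peptide adrenomedullin, had -0.34, the latter from 0.860 to 3.69 CPM.

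Set against all genes, the spread between the WT libraries was the clearest feature of the 33. WT replicate 2 was more than 2-fold above WT replicate 1 for 9 of 32 members, 28.1% against 1.78% of all genes tested, namely Aldoc, Bnip3, Egln1, Egln3, Vegfa, Car12, Ndrg1, Ankrd37 and Adm. None was more than 2-fold below it (1.36% of all genes). Smaller differences went the same way: 27 of 32 members were higher in WT replicate 2, 84.4% against 50.7%. The median difference, WT replicate 2 minus WT replicate 1, was 0.54 on the log2(CPM + 0.5) scale, and 0.01 over all genes. Between the KO libraries no member differed more than 2-fold (0.869% of all genes were that far above and 0.999% that far below), 14 of 32 were higher in KO replicate 2 (43.8% against 39.5%), and the median difference was -0.09, with -0.08 over all genes. These differences between single libraries have no replicate and were not tested.

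**Figure D4:**
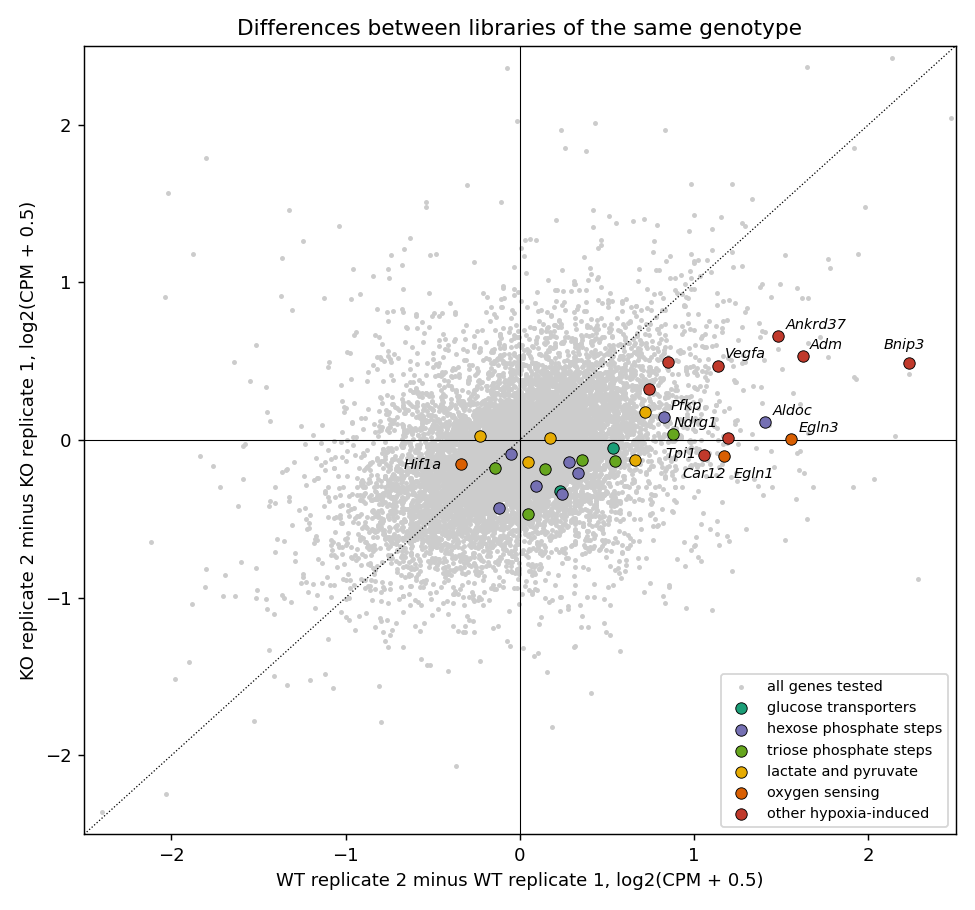
Difference between the 2 libraries of a genotype, WT on the x axis and KO on the y axis, both in log2(CPM + 0.5), for all genes tested (grey, those beyond the axes not drawn) and the 32 members by role, with a dotted line where both differences are equal. Members spread to the right, up to 2.23 for Bnip3, and stay within -0.47 to 0.66 on the y axis.

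By role, the median difference between the WT libraries was 1.16 for the 8 other hypoxia-induced genes, 6 of which exceeded 2-fold, and 1.17 for the 3 oxygen-sensing genes. It was 0.38 for the 2 glucose transporters, 0.26 for 8 hexose phosphate genes, 0.25 for 6 triose phosphate genes and 0.17 for 5 genes of lactate and pyruvate. The hypoxia-induced end of the list therefore held most of the wide differences, with Aldoc the one glycolytic enzyme past 2-fold. Aldoc and Bnip3 had WT means of 57.8 and 96.7 CPM, and the other members past 2-fold had WT means of 2.27 to 17.1 CPM. Neither the roles nor the share over all genes was matched for level.

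Both KO libraries lay between the WT libraries for 11 members, 34.4% against 12.7% of all genes. KO minus WT had opposite signs in the 2 tags for 20 members, 62.5% against 28.7%, or for 16, against 28.2% of all genes, when totals were scaled by TMM factors. For 30 of 32 members, 93.8% against 59.4%, the difference was larger with the first tag. By arithmetic this means that replicate 2 minus replicate 1 was larger in WT than in KO, so it is no separate result. The counts of KO libraries inside the WT range and of opposite signs also rise with a wide spread between the WT libraries. They are therefore not independent of that spread. The median KO minus WT was 0.32 with the first tag and -0.20 with the second. Rn45s, the ribosomal RNA precursor, took 7.58% and 10.9% of footprint counts in WT and 10.6% and 15.2% in KO, and its part in these differences was not tested.

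Which WT library was kept set the direction of the median and of many members, but not of all. Ldhb kept its sign, with KO minus WT of -0.65 with the first tag and -0.81 with the second. Without WT replicate 1, edgeR called 6 members lower in KO (18.8% against 2.21% of all genes), namely Pfkp, Aldoc, Tpi1, Ldhb, Car12 and Ankrd37, with log2 fold changes from -1.40 to -0.67, and the median of the members was -0.15. Without WT replicate 2 it called 2 higher (6.25% against 2.47%), Bnip3 at 1.62 (adjusted p = 0.00164) and Egln3 at 1.43 (adjusted p = 0.00866), and the median was 0.30. Without KO replicate 1 or KO replicate 2 no member was called (1.64% and 1.50% of all genes). In these fits the lone library was assumed to vary like the other genotype's. For Bnip3 and Egln3 the WT libraries differed by 2.23 and 1.56 on the log2(CPM + 0.5) scale, and the KO libraries by 0.49 and 0.008. Calls from fits with 1 WT library are therefore not reliable for them.

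Genes of neighbouring pathways that are no members were read the same way. Of 29 other HIF targets tested, 9 passed at an unadjusted edgeR p below 0.05, 31.0% against 19.4% of all genes. After adjustment edgeR called 2 of the 29, where 2.44% of all genes were called. Igfbp3, an insulin-like growth factor binding protein, rose from 11.9 and 7.15 CPM in WT to 46.9 and 38.4 CPM in KO, a log2 fold change of 2.15 (SE 0.26, edgeR adjusted p = 0.00907). Hmox1, the haem oxygenase, fell from 140 and 139 CPM to 87.8 and 76.5 CPM, a log2 fold change of -0.76 (SE 0.15, edgeR adjusted p = 0.0354), and with the median of chromosome 8 removed its log2 fold change was -0.53 (edgeR adjusted p = 0.122, and 5.94e-05 with the block). In neither was WT replicate 2 above WT replicate 1.

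The 29 other HIF targets had a median log2 fold change of 0.27, with 22 above 0, and 17 were higher in WT replicate 2, with a median difference of 0.19. More than 2-fold higher there were Ddit4, at 53.0 and 107 CPM in WT against 107 and 118 CPM in KO, Bhlhe40, at 12.7 and 30.8 against 28.3 and 23.6 CPM, and Ndufa4l2, at 2.01 and 14.1 against 5.36 and 12.5 CPM. In all 3 WT replicate 1 was the lowest of the 4 libraries, as for Egln3, but they were picked for a low WT replicate 1. Of all genes tested, 1.78% were that far higher in WT replicate 2.

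Neither the 23 branch and regulator genes of glycolysis, the 14 of pyruvate entry to mitochondria, the 8 of the pentose phosphate path nor the 15 HIF regulators held a call without the block. Nearest were Slc2a4 (1.74, edgeR adjusted p = 0.0651) and Hkdc1 (-1.70, adjusted p = 0.0672) among the glycolysis genes, Pdha1 (0.43, adjusted p = 0.220) and Pdk2 (0.84, adjusted p = 0.228) at pyruvate entry, Pgd (-0.21, adjusted p = 0.477) and Rpe (0.27, adjusted p = 0.488) in the pentose path, and Tceb2 (0.62, adjusted p = 0.0833) and Epas1 (-0.55, adjusted p = 0.180) among HIF regulators, all as log2 fold changes. Slc2a4 and Hkdc1 were scarce, at most 3.44 CPM. At an unadjusted p below 0.05 these 4 lists, in the order glycolysis, pyruvate entry, pentose phosphate and HIF regulators, held 5, 2, 0 and 4 genes, or 21.7%, 14.3%, 0% and 26.7% of those tested against 19.4% of all genes. The block called 24.0% of all genes. With it, the other HIF targets held 8 higher and 2 lower (34.5% of those tested) and glycolysis 3 and 4 (30.4%). Pyruvate entry held 2 and 1 (21.4%), pentose phosphate 0 and 0 (0%) and HIF regulators 2 and 2 (26.7%).

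RNA-seq could be read for few members. Only 7 to 10 of the 33 had at least 10 counts in a library, and 8 passed the filter: Slc2a1, Slc2a3, Gpi1, Pfkp, Aldoa, Gapdh, Pkm and Ldha. None was called by edgeR (6.37% of all genes were) or by DESeq2 (3.59%), and 1 of the 8 passed at an unadjusted p below 0.05 (12.5% against 23.1%). That was Slc2a1, with 2 and 11 counts in WT and 21 and 25 counts in KO, higher in both KO libraries, with a log2 fold change of 2.13 (SE 0.60, edgeR adjusted p = 0.0586). With the block, which called 7.43% of all genes, its adjusted p was 0.0254, but the RNA-seq libraries share only a replicate number, with no tag, and their same-numbered deviations correlated at 0.05. The 2 WT counts differed widely: without WT replicate 2 the log2 fold change was 3.63 (adjusted p = 0.00228, with 6.32% of all genes called).

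The other 7 had log2 fold changes of -0.48 to 0.17 in RNA-seq. Pkm had 62 and 57 counts in WT and 32 and 40 in KO, and Gapdh 70.9 and 73.7 in WT and 46.7 and 35.8 in KO, before scaling to the smaller KO totals. Ldhb had 6 and 5 counts in WT and 1 and 1 in KO, too few for the test. Bnip3 had at most 1 count per library and Egln3 at most 2, and Ankrd37 and Adm had 0, which allows up to 13.7 to 19.7 CPM. The difference between the WT libraries in hypoxia-induced footprints was therefore not detectable at this depth in RNA-seq.

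Translational efficiency sets the footprints of a gene against its RNA-seq counts, and the same 8 members had a value. None was called by edgeR (9.26% of all genes were), 1 passed at an unadjusted p below 0.05 (12.5% against 24.4%), and DESeq2 called 1 lower (12.5% against 4.32%). Both times it was Slc2a1, with a log2 fold change of -1.86 (SE 0.56, edgeR adjusted p = 0.0569). Its footprints differed little and its few RNA-seq counts were higher in KO. The other 7 lay between -0.16 and 0.70, the highest being Aldoa (SE 0.44, edgeR adjusted p = 0.361).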

How the data were processed

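Gene tables of 4 Ribo-seq and 4 RNA-seq libraries were used. Each table lists RSEM expected counts, TPM, FPKM and gene lengths, per the file headers. Alignment with Bowtie2 2.3.4.3 to mm10 is named in the submitters' processing notes, without settings. RSEM splits shared reads by estimate, so members with near-identical copies are uncertain. Deposited FPKM values were not used, and deposited TPM values gave levels per length and isozyme shares. Expected counts were rounded for the tests and scaled to the library total as CPM.

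KO was compared with WT by the edgeR 4.0.16 quasi-likelihood test (R 4.3.3, robust glmQLFit, TMM factors, filterByExpr) in each assay apart, with Benjamini-Hochberg adjustment over all genes tested and a call below 0.05. Translational efficiency was the interaction of assay and genotype in 1 fit over 8 libraries. Standard errors were derived from the F statistics. Differences between single libraries used log2(CPM + 0.5). Full statistics were given for members called with or without the replicate block or with the 6 smallest p, for called genes of the companion lists, and otherwise for the 2 genes of each list with the smallest p. Ddit4, Bhlhe40 and Ndufa4l2 were named after their values were seen. The 33 members and all lists were chosen with earlier results of these data known.

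Deviations of same-numbered libraries correlated at 0.43 in Ribo-seq and 0.05 in RNA-seq, over 2 pairs. Same-numbered Ribo-seq libraries share a date-like tag, so the blocked value is given where it changes a call. Its fit had 1 residual degree of freedom. Alternatives were DESeq2 1.42.0, other size factors, filters on low counts (none, or a mean of at least 50), limma 3.58.1 on log2(TPM + 1), removal of chromosome medians, and leaving out each library. Steps were tested on simulated data. Intervals and floors cover counting error only, and p-values reflect only how these libraries vary. Chromosomes, gene positions and promoters came from RefSeq tables of GRCm38.p6, with 23753 symbols matched to a chromosome.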

Additional observations from a re-analysis of the deposited data

Results flagged for a closer look

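The difference between KO and WT footprints was not the same in the 2 pairs of libraries that share a date-like tag. On the log2(CPM + 0.5) scale, KO minus WT with the first tag exceeded that with the second by 0.52 in the median of the 32 members, the median being above 0 with the first and below 0 with the second. For 16 members KO minus WT was above 0 with the first tag and below 0 with the second, both with totals as they are and scaled by TMM factors. In the glycolytic enzymes the excess was 0.42 for Hk1, 0.31 for Pfkm, 0.58 for Aldoa, 1.29 for Aldoc, 0.84 for Tpi1, 0.67 for Pgk1 and 0.48 for Pkm. In transport and lactate formation it was 0.59 for Slc2a3, 0.54 for Ldha and 0.78 for Slc16a3. In oxygen-sensing and hypoxia-induced genes it was 1.74 for Bnip3, 1.55 for Egln3, 1.28 for Egln1, 1.18 for Ndrg1, 1.15 for Car12 and 1.09 for Adm. By arithmetic this excess equals replicate 2 minus replicate 1 in WT less the same in KO. The medians of these were 0.54 in WT and -0.09 in KO, so the excess largely restates the spread between the WT libraries. Each tag holds 1 WT and 1 KO library, so the difference between tags was not tested.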

How the results depend on the processing

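No member was called with other size factors, a mean count of at least 50, limma on log2(TPM + 1) or chromosome medians removed. DESeq2 called 1 (Ldhb), no filter 2 (Ldhb and Ankrd37), the replicate block 10, and the block with chromosome medians removed 5. Over all genes the count of 301 became 1110 with no filter, 186 at a mean count of at least 50, 72 by limma, 2960 with the replicate block and 2519 with the block and chromosome medians removed. Directions turned for Egln1 (0.0031 with the block, 0.0067 by limma, 0.19 and 0.22 with chromosome medians removed without and with the block), and for Tpi1 (0.086 and 0.15), Gapdh (0.13 and 0.13) and Ldha (-0.050 and -0.013) with chromosome medians removed, without and with the block. In RNA-seq the count of 133 genes became 75 by DESeq2 and 76 at a mean count of at least 50, and 1 member was called with no filter and 1 with the block. In translational efficiency DESeq2 called 1 member, and the count of 135 genes became 17 at a mean count of at least 50.

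Leaving out each library moved the number of footprint calls between 189 and 761 genes and between 0 and 6 members, and the median of the members between -0.15 and 0.30. Footprint log2 fold changes then ranged from -0.080 to 0.44 for Slc2a3, -0.0083 to 0.26 for Hk1, -0.071 to 0.27 for Pfkm, -0.73 to 0.088 for Pfkp, -1.12 to 0.29 for Aldoc, -0.67 to 0.20 for Tpi1, -0.12 to 0.42 for Pgk1, -0.044 to 0.30 for Pkm, -0.29 to 0.42 for Ldha and -0.0062 to 0.64 for Slc16a3. They ranged from -0.61 to 1.62 for Bnip3, -0.57 to 0.73 for Egln1, -0.19 to 1.43 for Egln3, -0.13 to 1.03 for Vegfa, -1.09 to 0.033 for Car12, -0.18 to 0.67 for P4ha1, -0.67 to 0.071 for P4ha2, -0.25 to 0.99 for Ndrg1, -1.40 to 0.14 for Ankrd37 and -1.08 to 0.99 for Adm. In RNA-seq the calls ranged from 73 to 242 genes and 0 to 1 members, with -0.59 to 1.53 for Ldha and -0.21 to 0.25 for Slc2a3. For translational efficiency they ranged from 18 to 154 genes and 0 to 1 members, with -1.27 to 0.82 for Ldha, -0.51 to 0.29 for Pfkp and -0.077 to 0.54 for Slc2a3. The cause of these changes was not tested. With 2 libraries a group, each result rests on single libraries. The RNA-seq depth and the small share of the members in it limit which members could be tested.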
